A study of Mus musculus with 18 samples.

Results

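Mammary glands of Cip2a-/- mice taken at the DMBA endpoint were compared with Cip2a-/- glands taken 2 weeks after the last dose of DMBA, over all genes that passed a low-count filter. The comparison used 6 of the 18 polyA RNA libraries of the study, 3 for each time. Every mouse had the C57BL/6Jx129 background. DMBA, a polycyclic aromatic hydrocarbon carcinogen, was given in oil by oral gavage as 6 weekly doses of 1 mg, starting at 12 to 14 weeks of age. The endpoint mice carried tumours in some tissue and were killed for that reason, and the gland sampled was free of tumour. The other 12 libraries came from WT glands at the endpoint, WT glands at 2 weeks, and untreated glands of each genotype (3 libraries a group). The time from the last dose to the endpoint and the ages at sampling are not given, so time since DMBA, age and tumour burden elsewhere in the body cannot be told apart. The glands are whole tissue, from which lymph nodes were left out per the labels' protocols, and fewer cells of a type cannot be told apart from less RNA per cell.

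The Cip2a protein restrains the phosphatase PP2A and also acts in mitotic cells that carry DNA breaks. DMBA is activated in tissue to a diol epoxide that forms bulky DNA adducts, which block polymerases and activate p53. p53 then drives genes of cell cycle arrest, such as Cdkn1a, of apoptosis, such as Bax and Bbc3, and of its own feedback, such as Mdm2. The mammary gland itself is an epithelial tree in a fat pad with collagen-rich stroma and vessels, so whole-gland RNA also follows the mix of these tissues.

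The deposited counts summed to 16121743 to 22588031 reads per library in the 6 glands, and 15482 of 23337 listed genes passed the filter. The targeted gene, listed as C330027C09Rik (chromosome 16, 48994157 to 49019716), had 0 reads over the 3 endpoint Cip2a-/- libraries and 0 over the 3 libraries at 2 weeks, which allows up to 0.053 and 0.0502 CPM (counts scaled for the depth of each library). WT glands had 202 reads at the endpoint and 203 at 2 weeks. Markers of mammary epithelium and of fat were present in all 6 glands, with 62.9 to 439 CPM of Epcam and 767 to 4170 CPM of Adipoq. Several of the 6 glands stood apart by markers of other tissue. For each marker list a score was taken as the mean over its genes of log2 CPM, centred per gene over the 6 glands. Library 1 at 2 weeks had a skeletal muscle score of 7.19, against -2.93 to 0.13 in the other 5 glands, and its correlation with them across genes was 0.822 to 0.884. Library 2 at 2 weeks had B cell and T cell scores of 3.30 and 3.15. Its lymph node stroma score was 2.41, against -2.55 and 0.38 in the other 2-week glands and -1.41 to 0.76 at the endpoint. Ccl19, a chemokine of lymph node stroma, had 21.2 CPM there and at most 2.51 CPM in the other 5 glands, and Cr2, a receptor of B cells and follicular dendritic cells that is also in the B cell list, had 25.1 CPM there and at most 3.2 CPM. Whether that gland held node tissue was not tested. At the endpoint, library 1 had a milk protein score of 4.83, library 2 had a G2 and M phase score of -2.17, and library 3 had red blood cell and neutrophil scores of 4.63 and 3.0. The numbers in the table's column headers were all higher in the 2-week libraries (5144 to 5185 in Cip2a-/-) than in the endpoint libraries (3996 to 4021). What they stand for is not given, so whatever they mark cannot be told apart from the time.

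The promoters of 4 p53 target genes, the first in list order with a match, are shown because this family had lower values at the endpoint. Each line gives a window of 100 bases around the half-sites, 5′ to 3′ on the gene's strand, within the 250 bases before the RefSeq start (GRCm38.p6). The window ends 8 bases before the start for Cdkn1a, 132 for Mdm2, 147 for Bax and 131 for Ccng1. Capitals mark matches to the p53 half-site consensus within the 250 bases before the start, a motif whose reverse complement is the same consensus, so that a match holds for both strands. The windows lie at chr17:29090872-29090971 on the plus strand for Cdkn1a, and on the minus strand at chr10:117710890-117710989 for Mdm2, chr7:45467045-45467144 for Bax and chr11:40755417-40755516 for Ccng1.
Cdkn1a: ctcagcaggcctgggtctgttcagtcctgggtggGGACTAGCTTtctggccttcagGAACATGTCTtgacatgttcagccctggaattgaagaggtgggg
Mdm2: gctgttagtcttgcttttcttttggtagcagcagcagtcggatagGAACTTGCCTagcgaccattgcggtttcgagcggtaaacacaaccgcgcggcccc
Bax: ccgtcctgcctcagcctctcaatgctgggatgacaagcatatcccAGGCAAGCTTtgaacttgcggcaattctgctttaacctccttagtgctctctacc
Ccng1: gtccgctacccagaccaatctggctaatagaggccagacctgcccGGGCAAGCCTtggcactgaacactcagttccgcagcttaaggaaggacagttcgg
A half-site stood in the upstream 250 bases of 7.13% of the 32851 promoters in the RefSeq set, and in at least 1 promoter of 2216 of the 27025 genes there (8.2%). Of 19 p53 target genes with a promoter in that set, 7 had one (36.8%), and these were Cdkn1a, Mdm2, Bax, Ccng1, Aen, Ei24 and Polk. Cdkn1a had 2 half-sites. A match is only a description of the letters, and p53 often binds farther away than this window.

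No gene passed the edgeR quasi-likelihood test with Benjamini-Hochberg adjustment over 15482 genes at an adjusted p under 0.05 (0%). The smallest edgeR adjusted p was 0.0542, shared by 9 genes, and 141 genes stood at 0.0586 or under. At an unadjusted p under 0.05 there were 3657 genes, 23.6% of those tested, of which 1809 were higher (11.7%) and 1848 lower (11.9%) at the endpoint. All values given below as higher or lower at the endpoint therefore describe direction and size, and none of them passed the edgeR threshold. DESeq2, run as an alternative, called 1800 genes at an adjusted p under 0.05, 937 higher (6.08%) and 863 lower (5.6%). limma voom with sample quality weights called 0. At an edgeR adjusted p under 0.10, a threshold chosen after seeing the data, there were 959 genes (6.19%), 504 higher (3.26%) and 455 lower (2.94%). Leaving out endpoint library 1 raised the edgeR count to 552 genes, 356 higher and 196 lower. The count at an unadjusted p under 0.05 was 2155 without 2-week library 1 and 2000 without endpoint library 3. Nothing in the labels says more than that the libraries are separate samples, so a p-value measures the spread between these samples. The median log2 fold change, endpoint over 2 weeks, was -0.04 over all genes tested.

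p53 target genes were lower in endpoint glands than at 2 weeks in 16 of the 25 listed at an unadjusted p under 0.05, and 1 was higher (Ddit4), against 11.9% and 11.7% of all genes. Their median log2 fold change was -1.24. DESeq2 called 14 lower and 1 higher. For 14 members every endpoint gland was under every 2-week gland, as for 11.4% of all genes, and for 0 it was the reverse, as for 12.5%. The secreted stress cytokine Gdf15 (chromosome 8, 70629393 to 70632470) had 0.652, 0.591 and 0.996 CPM in the endpoint glands, against 25.4, 20.1 and 13.5 CPM in the 2-week glands. Every endpoint gland was far under every 2-week gland, and the untreated Cip2a-/- glands had 0.179, 0.330 and 0.869 CPM. The log2 fold change was -4.71 ± 0.73 (SE; edgeR adjusted p = 0.0542), the largest decrease among the 12 genes named for lower values below.

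Ccng1, a cyclin G that recruits PP2A to Mdm2, had 91.1, 71.6 and 38.4 CPM at the endpoint and 1140, 400 and 221 CPM at 2 weeks. Its groups did not overlap, and 2-week library 1 was the highest by far (log2 fold change -3.13 ± 0.68, edgeR adjusted p = 0.0586). Eda2r, a death receptor of the TNF receptor family, had 2.26, 1.07 and 1.72 CPM at the endpoint and 67.9, 18.6 and 10.9 CPM at 2 weeks. Here too the groups were apart (log2 fold change -4.26 ± 0.81, edgeR adjusted p = 0.0586). Mdm2, the ubiquitin ligase that limits p53, had 45.5, 48.6 and 54.2 CPM in endpoint glands and 169, 108 and 74.0 CPM in 2-week glands. The endpoint values were close together and close to those of untreated glands (46.9, 43.4 and 53 CPM), while the 2-week values spread more than 2-fold. The log2 fold change of Mdm2 was -1.24 ± 0.30 (edgeR adjusted p = 0.0681).

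Among genes of apoptosis, Bbc3, which encodes the BH3-only protein Puma, had 19.7, 11.3 and 11.5 CPM at the endpoint and 41.6, 37.3 and 31.2 CPM at 2 weeks. Bax, the pore-forming effector, had 49.2, 37.7 and 60.5 CPM at the endpoint and 107, 107 and 81.8 CPM at 2 weeks. Neither gene's groups overlapped, with log2 fold changes of -1.37 ± 0.29 for Bbc3 and -1.0 ± 0.30 for Bax (edgeR adjusted p = 0.0586 and 0.0962). The death receptor genes Fas and Tnfrsf10b did not follow: Fas had 25.4, 37.1 and 45.2 CPM at the endpoint and 32.2, 41.2 and 34.1 CPM at 2 weeks, a log2 fold change of 0.00 ± 0.18. Pmaip1 and Perp also overlapped between the times, at 0.76 ± 0.87 and 1.21 ± 1.04.

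Cdkn1a, which encodes the cyclin-dependent kinase inhibitor p21, was uneven at the endpoint. It had 67.2, 121 and 496 CPM there, against 1080, 655 and 432 CPM at 2 weeks. Endpoint library 3 lay inside the range of the 2-week glands, and the log2 fold change was -1.66 ± 0.75 (edgeR adjusted p = 0.198). Ddit4, an inhibitor of mTORC1 that glucocorticoids also induce, ran the other way, with 48.0, 359 and 706 CPM at the endpoint and 43.6, 104 and 115 CPM at 2 weeks. Endpoint library 3 was again the highest. The same gland had the highest score of the glucocorticoid list, which includes Cdkn1a itself, and a link between them was not tested. Over the 25 genes the p53 score was -0.74, -0.76 and -0.30 in the endpoint glands and 1.05, 0.61 and 0.14 in the 2-week glands. Without library 1 at 2 weeks, which held the muscle RNA, 13 members were lower at an unadjusted p under 0.05 and the median was -0.97.

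**Figure D1:**
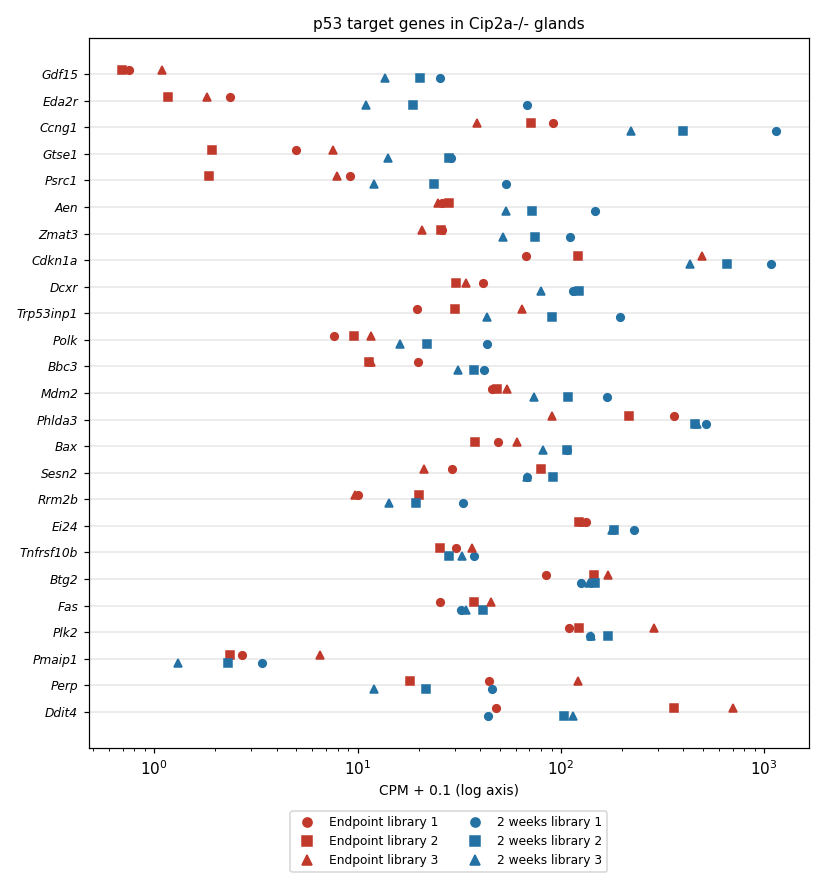
CPM plus 0.1 on a log axis for the 25 p53 target genes in each Cip2a-/- gland, ordered by log2 fold change. Points are single libraries, red for the endpoint and blue for 2 weeks. For 14 genes all 3 endpoint points lie left of all 2-week points, and Cdkn1a shows endpoint library 3 among the 2-week glands.

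Genes of DMBA metabolism and DNA repair were also described. Mgmt and Ephx1 were chosen after their values were seen. Mgmt, which removes alkyl groups from guanine, had 13.8, 9.83 and 7.30 CPM at the endpoint and 39.5, 38.4 and 27.8 CPM at 2 weeks. The groups were apart, the untreated glands had 12.5, 12.7 and 11.5 CPM, and the log2 fold change was -1.77 ± 0.36 (edgeR adjusted p = 0.0586). Ephx1, an epoxide hydrolase on the path to the DMBA diol epoxide, had 163, 174 and 169 CPM at the endpoint and 344, 407 and 295 CPM at 2 weeks. Its endpoint values nearly coincided and lay between the untreated values (101, 97.8 and 111 CPM) and those at 2 weeks (log2 fold change -1.05 ± 0.23, edgeR adjusted p = 0.0586). The activating enzymes Cyp1b1 and Cyp1a1 overlapped between the times, with log2 fold changes of 0.49 ± 0.65 and 0.36 ± 1.11. Of 10 tested genes of the Ahr pathway and polycyclic hydrocarbon metabolism, 2 were higher (Nqo1 and Aldh3a1) and 1 lower (Ephx1) at an unadjusted p under 0.05, against 11.7% and 11.9% of all genes. Of 15 DNA repair and checkpoint genes, 2 were higher (Ercc1 and Ddb2) and 0 lower. The share of higher genes, 13.3%, was near the 11.7% of all genes, and with 1 library left out 0 to 2 were higher and 0 to 2 lower. Xrcc1, a scaffold of base excision and single-strand break repair that is in neither list, had 64.0, 61.7 and 68.6 CPM at the endpoint and 34.5, 45.1 and 43.5 CPM at 2 weeks, with no overlap (log2 fold change 0.66 ± 0.13, edgeR adjusted p = 0.0586).

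Collagen genes formed the second family that was lower at the endpoint. At an unadjusted p under 0.05, 12 of 16 were lower and 0 higher, against 11.9% and 11.7% of all genes, and the median log2 fold change was -1.40. DESeq2 called 8 lower, against 5.6% of all genes. Col3a1, a fibrillar collagen of soft stroma, had 1310, 180 and 315 CPM in endpoint glands and 2830, 3230 and 5830 CPM at 2 weeks. The groups were apart, with endpoint library 1 nearest to the 2-week glands (log2 fold change -2.72 ± 0.80, edgeR adjusted p = 0.094). Col1a1, the main chain of type I collagen, had 480, 79.5 and 203 CPM at the endpoint and 481, 868 and 1620 CPM at 2 weeks. Endpoint library 1 and 2-week library 1 were almost equal, and the edgeR adjusted p was 0.167 at a log2 fold change of -1.96 ± 0.80.

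The network collagens of basement membrane and of the cell surface had lower values too. Col4a1 had 1400, 1070 and 938 CPM at the endpoint and 1600, 2640 and 3500 CPM at 2 weeks (log2 fold change -1.18 ± 0.37), and Col6a2 had 345, 151 and 149 CPM at the endpoint and 367, 830 and 1140 CPM at 2 weeks (-1.86 ± 0.48). In both genes the lowest 2-week gland was library 1. Nid2, which links laminin and type IV collagen, had 44.8, 47.3 and 38.8 CPM at the endpoint and 147, 292 and 255 CPM at 2 weeks. Its groups were well apart, and its log2 fold change of -2.40 ± 0.37 had an edgeR adjusted p of 0.0542. The matrix glycoprotein gene Sparc stood at -1.28 ± 0.48, whereas Dcn, the abundant stromal proteoglycan decorin, stood at 0.31 ± 0.46 with overlapping groups. Of 18 proteoglycan and matrix adaptor genes, 1 was higher and 4 lower at an unadjusted p under 0.05, against 11.7% and 11.9% of all genes. In that list 10 were above 0 and 8 below 0, with a median of 0.13 (-0.30 to 0.38 with 1 library left out). Of the 15 fibroblast markers tested, 1 was higher and 1 lower at an unadjusted p under 0.05. Both shares were under the 11.7% and 11.9% of all genes. By sign, 12 were below 0 and 3 above 0, with a median log2 fold change of -0.73. The fibroblast scores were 0.14, -0.94 and 0.04 at the endpoint against -0.40, 0.29 and 0.87 at 2 weeks. Without library 3 at 2 weeks 8 collagens were lower, with a median of -1.03.

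Endothelial markers were higher at the endpoint in 11 of 17 genes at an unadjusted p under 0.05, with 1 lower and a median log2 fold change of 1.08, against 11.7% higher and 11.9% lower over all genes. DESeq2 called 7 higher and 1 lower. Pecam1, an adhesion molecule of endothelial junctions, had 302, 500 and 838 CPM in endpoint glands and 236, 307 and 348 CPM in 2-week glands. Endpoint library 1 lay within the range of the 2-week glands (log2 fold change 0.88 ± 0.34, edgeR adjusted p = 0.148). Cdh5, the endothelial cadherin, overlapped likewise, at 0.60 ± 0.38 (edgeR adjusted p = 0.358). Plvap, which forms the diaphragms of fenestrae, had 408, 227 and 283 CPM at the endpoint and 70.6, 133 and 172 CPM at 2 weeks, and Vwf, the clotting factor stored in endothelial cells, had 257, 164 and 486 CPM at the endpoint and 103, 86.4 and 146 CPM at 2 weeks. Both were apart between the times, at 1.29 ± 0.33 and 1.44 ± 0.42 (edgeR adjusted p = 0.0755 and 0.0924).

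The member that was lower was Thbd, the thrombin receptor thrombomodulin, with 123, 84.0 and 89.0 CPM at the endpoint and 138, 162 and 212 CPM at 2 weeks. The endothelial score was -0.23, 0.48 and 1.03 in the endpoint glands and -0.87, -0.36 and -0.05 in the 2-week glands. The count rested on single libraries: without endpoint library 3 it was 4 higher and 1 lower with a median of 0.66, and without 2-week library 1 it was 6 higher and 1 lower with a median of 0.94. Endpoint library 3 also had the red blood cell score of 4.63, and the part of blood content in these values was not tested. Of 11 pericyte and smooth muscle markers, 2 were lower (Rgs5 and Des) and 0 higher at an unadjusted p under 0.05, against 11.9% and 11.7% of all genes. In this list 4 were above 0, with a median of -0.20. Rgs5 of pericytes had 17.0, 19.8 and 23.6 CPM at the endpoint and 61.6, 60.1 and 56.5 CPM at 2 weeks (log2 fold change -1.56 ± 0.35, edgeR adjusted p = 0.0586), without overlap. The smooth muscle genes Myh11 and Acta2 went the other way without passing, at 0.73 ± 0.47 and 0.54 ± 0.62, and Des was high only in the muscle-rich 2-week library 1 (1450 CPM).

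**Figure D2:**
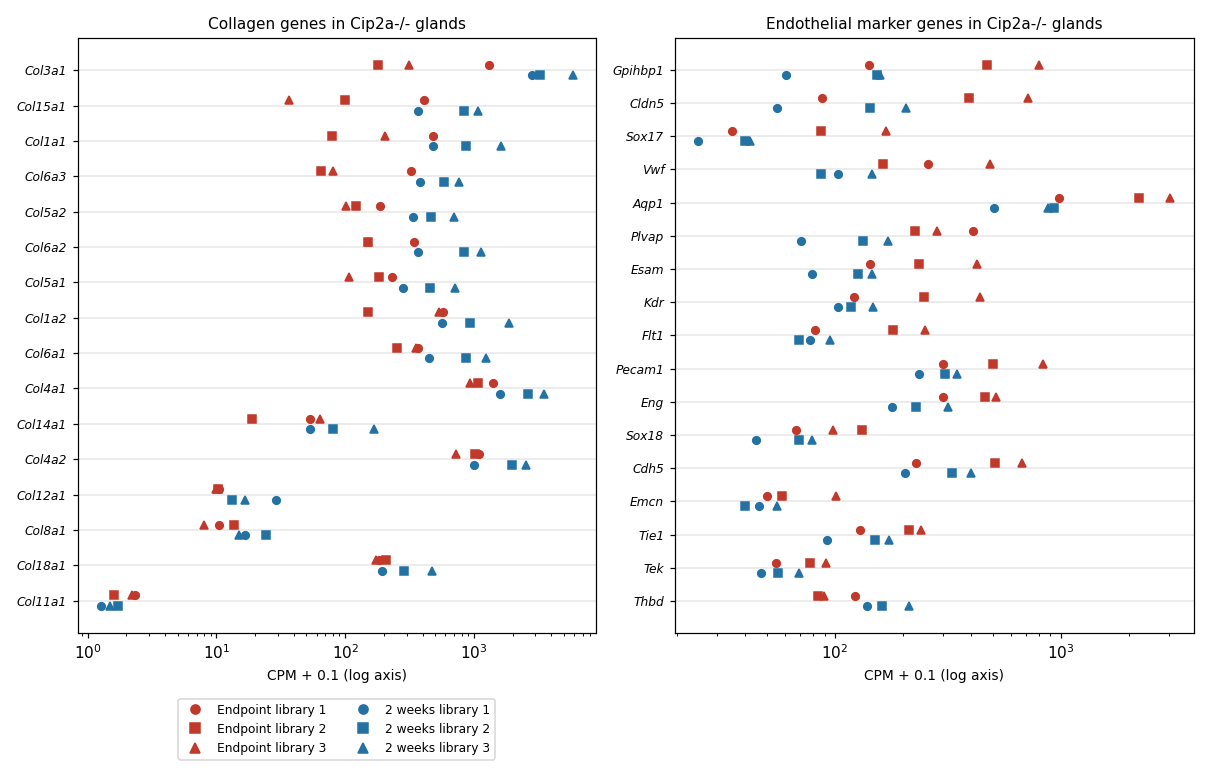
CPM plus 0.1 on log axes for 16 collagen genes (left) and 17 endothelial markers (right) in each Cip2a-/- gland, red for the endpoint and blue for 2 weeks, 1 point per library. The log2 fold change is below 0 for 15 of 16 collagens and above 0 for 16 of 17 endothelial genes, and endpoint library 1 (circles) often lies close to the 2-week glands.

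Ribosomal protein genes were higher at the endpoint in 68 of 83 tested genes at an unadjusted p under 0.05, and 2 were lower, against 11.7% and 11.9% of all genes, with a median log2 fold change of 0.71. DESeq2 called 57 higher and 2 lower. Rpl10 had 856, 515 and 983 CPM at the endpoint and 416, 481 and 472 CPM at 2 weeks. Endpoint library 2 was close to the 2-week glands and the other endpoint glands were about 2-fold above them (log2 fold change 0.78 ± 0.22). Rpl3 had 647, 483 and 942 CPM at the endpoint and 235, 369 and 322 CPM at 2 weeks, without overlap (1.16 ± 0.26). The lower members were Rpl3l, the striated muscle paralog, which reached 205 CPM in the muscle-rich 2-week library 1, and Rps27l, a p53 target, which had 75.4, 59.4 and 60.5 CPM at the endpoint and 142, 102 and 91.1 CPM at 2 weeks. Without endpoint library 3, 26 were higher and 1 lower, and with the 6 compared libraries alone in the fit 24 were higher and 2 lower.

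Ribosomal protein transcripts are short, with a median length of 639.5 bases against 1480.5 for all genes. Over all genes, the slope of the library's log2 CPM deviation per doubling of transcript length was -0.08, -0.03 and -0.01 in endpoint glands and 0.10, 0.02 and 0.00 in 2-week glands. Among 4 equal bins of genes by transcript length, the median log2 fold change was -0.16 in the longest bin and 0.02 in the shortest. At an unadjusted p under 0.05, 330 of 3829 genes were higher and 661 lower in the longest bin. In the shortest bin 558 of 3832 were higher and 343 lower. The shares of all genes given beside the lists were not matched for transcript length. With a length offset 70 ribosomal protein genes were higher and 2 lower. Many of these genes have near-identical processed copies elsewhere in the genome, so how the counting divided their reads is uncertain.

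Targets of the glucocorticoid receptor and metallothionein genes were higher at the endpoint in 7 of 12 at an unadjusted p under 0.05, with 1 lower (Cdkn1a) and a median log2 fold change of 1.74. Over all genes 11.7% were higher and 11.9% lower. Fkbp5, a co-chaperone of the glucocorticoid receptor, had 49.9, 242 and 432 CPM at the endpoint and 36.9, 27.9 and 31.0 CPM at 2 weeks. All endpoint glands were above all 2-week glands, by little in library 1 and by far in the other two (log2 fold change 2.92 ± 0.70, edgeR adjusted p = 0.0681). Tsc22d3, the glucocorticoid-induced leucine zipper, had 67.5, 142 and 425 CPM at the endpoint and 61.5, 96.9 and 102 CPM at 2 weeks, with library 1 inside the 2-week range (1.29 ± 0.50). Mt2, a metal-binding metallothionein, had 32.5, 25.5 and 313 CPM at the endpoint and 18.1, 9.78 and 7.56 CPM at 2 weeks (3.39 ± 0.81). Without endpoint library 3 the list had 5 members higher and 1 lower and a median of 0.99. Of 13 immediate early genes, 5 were higher (38.5%, against 11.7% of all genes) and 0 lower, with 1 higher without that library, 2 without 2-week library 1 and 3 without endpoint library 1.

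Cholesterol synthesis genes all had fitted values under 0, and 6 of 18 tested were lower at an unadjusted p under 0.05 (median -0.79), against 11.9% of all genes. Sqle, the squalene epoxidase, had 31.8, 17.9 and 10.4 CPM at the endpoint and 28.4, 36.2 and 58.6 CPM at 2 weeks and overlapped (-1.04 ± 0.43). The count was 13 lower without endpoint library 1, the gland with high milk protein and fatty acid synthesis genes, 2 lower without 2-week library 3 and 3 lower without endpoint library 3. Fasn, the fatty acid synthase, ranged from 444 to 22700 CPM within the endpoint group alone.

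Epithelial identity genes had fitted values above 0 in all 16, but 1 passed an unadjusted p under 0.05 (Spint1), against 11.7% of all genes. For 9 members every endpoint gland was above every 2-week gland, as for 12.5% of all genes. Their scores were 0.76, -0.05 and 1.09 at the endpoint and -0.34, -0.45 and -1.01 at 2 weeks. The median log2 fold change of the list was 1.26 in Cip2a-/- and -0.59 in WT. With the 6 compared libraries alone in the fit, 12 were higher, and with 1 library left out 0 or 1. Epcam, the epithelial adhesion molecule, had 281, 134 and 439 CPM at the endpoint and 94.4, 110 and 62.9 CPM at 2 weeks, apart but variable (log2 fold change 1.67 ± 0.93). Of 13 luminal progenitor genes 6 were higher and 0 lower (median 1.52), against 11.7% and 11.9% of all genes. Without endpoint library 1 or without 2-week library 1 none of them passed. Elf5, the alveolar transcription factor, had 124, 15.3 and 64.8 CPM at the endpoint and 2.19, 17.9 and 7.05 CPM at 2 weeks, with endpoint library 2 inside the 2-week range. The milk protein list had a median of 4.55, and of 0.19 without endpoint library 1. In WT the medians of the luminal progenitor and milk protein lists were -0.26 and -0.37. Of 14 hormone-sensing luminal genes, 2 were lower (Esr1 and Sytl2) and 1 higher (Tnfsf11), against 11.9% and 11.7% of all genes. In this list 7 were above 0 and 7 below 0, with a median of -0.07. Esr1, the oestrogen receptor of these cells, had 6.52, 5.75 and 2.05 CPM at the endpoint and 72.3, 13.6 and 13.1 CPM at 2 weeks (-2.79 ± 0.71), the groups being apart. Gata3, a luminal transcription factor, stood at 0.71 ± 0.54, and Foxa1, a pioneer factor, at 0.10 ± 0.90. Tnfsf11, which encodes RANKL, reached 41.4 CPM in endpoint library 3 and at most 0.752 CPM in the other 5 glands.

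In several lists the count turned on 1 gland. Neutrophil genes were higher in 7 of 13, against 11.7% of all genes, and in 0 without endpoint library 3. For 4 of them every endpoint gland was above every 2-week gland, as for 12.5% of all genes. In WT 6 of 13 were higher and 0 lower, against 12.8% and 9.69% of all genes. The median log2 fold change was 1.77 in Cip2a-/- and 2.99 in WT. S100a9, a calcium-binding protein of neutrophils, had 11.1, 2.47 and 156 CPM at the endpoint and 2.40, 1.44 and 0.464 CPM at 2 weeks. Skeletal muscle genes were lower in 13 of 20, against 11.9% of all genes, and in 0 without 2-week library 1. In that library Ckm, the muscle creatine kinase, had 9290 CPM against at most 32.7 CPM in the other 5 glands. Of 25 S phase genes 0 were higher and 3 lower at an unadjusted p under 0.05, and 2 to 7 lower with 1 library left out. Of 25 G2 and M phase genes 0 were higher and 2 lower, shares of lower genes near the 11.9% of all genes. Mki67, the proliferation marker, had 29.3, 1.02 and 64.5 CPM at the endpoint and 32.4, 26.9 and 26.9 CPM at 2 weeks. Endpoint library 2 was thus far below the other 5 glands. Of 27 nuclear oxidative phosphorylation genes none passed an unadjusted p under 0.05 in either direction. Of 21 PP2A subunits and inhibitors 2 were higher and 1 lower, against 11.7% and 11.9% of all genes. Their median was -0.11 (0 to 3 higher and 1 to 3 lower with 1 library left out).

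**Figure D3:**
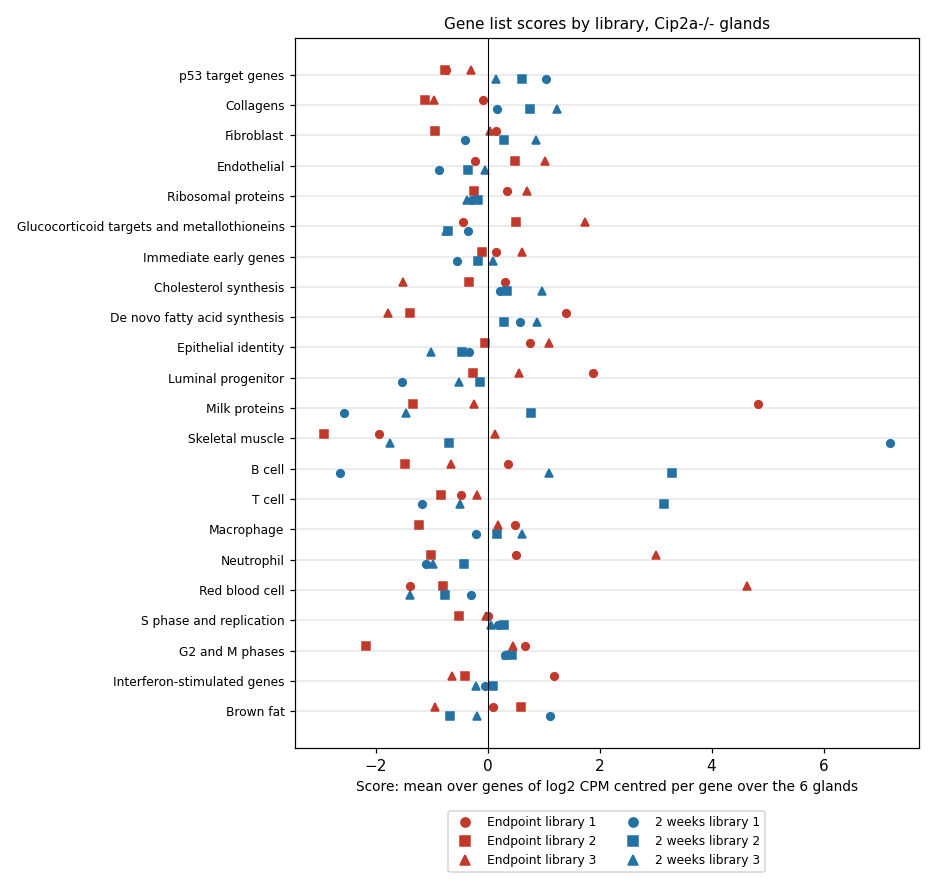
Scores of 22 gene lists in each Cip2a-/- gland (mean over genes of log2 CPM centred per gene over the 6 glands), red for the endpoint and blue for 2 weeks. The p53 target and collagen scores of all endpoint glands lie left of all 2-week glands, while the muscle, T cell, milk, neutrophil and red blood cell scores each have 1 library far from the rest.

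**Figure D4:**
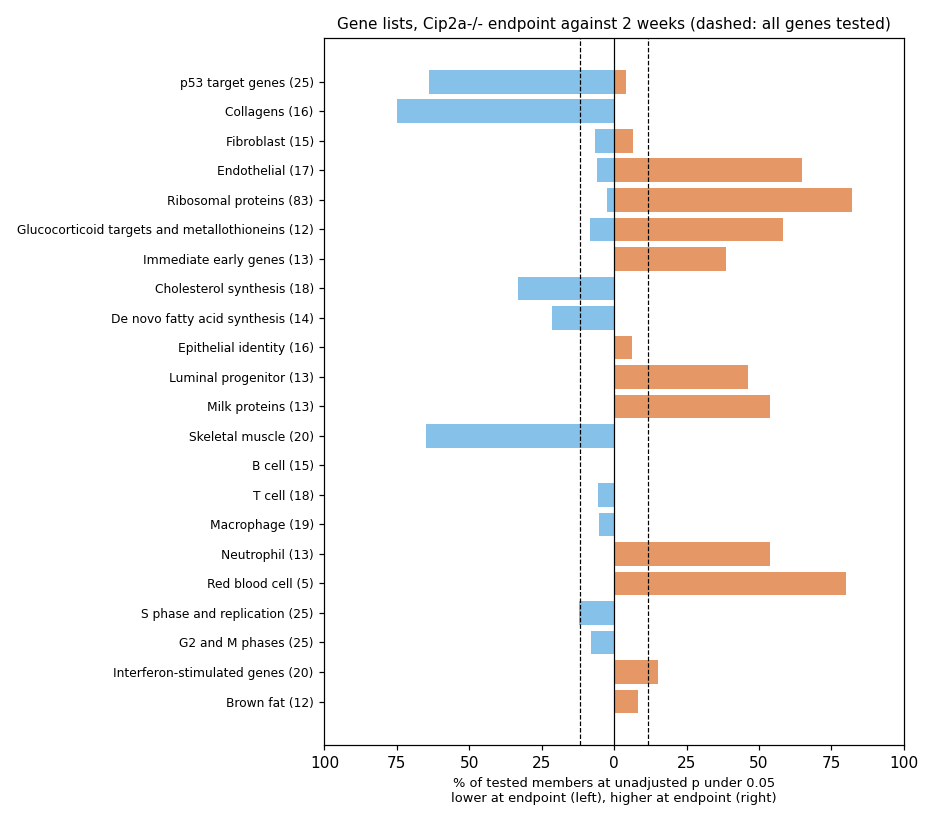
Percent of tested members at an unadjusted p under 0.05 for the same lists, lower at the endpoint to the left and higher to the right, with the number tested in brackets. Dashed lines mark all genes, at 11.9% lower and 11.7% higher. The collagen, muscle and p53 target bars reach far to the left, and the ribosomal protein bar far to the right.

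The 12 genes of smallest p in each direction that met the naming rule included several outside these lists. They had a mean of at least 5 CPM in 1 group, a proper gene name and no overlap between groups. All 24 were called by DESeq2, which is no separate support, because they were picked by p and overlap from the same counts. Rgs3, which shortens G protein signals, had 115, 137 and 130 CPM at the endpoint and 53.7, 61.8 and 72.0 CPM at 2 weeks. Rgl3, an exchange factor of the Ral GTPases, had 38.7, 37.8 and 35.8 CPM at the endpoint and 14.5, 19.5 and 16.8 CPM at 2 weeks. Both were about 2-fold higher with little spread (log2 fold change 1.03 ± 0.17 and 1.14 ± 0.19, each with an edgeR adjusted p of 0.0542).

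Larger differences with more spread were found for Gpr182, a chemokine-scavenging receptor of endothelium, and Car4, a membrane carbonic anhydrase of capillaries. Gpr182 had 15.5, 31.9 and 32.0 CPM at the endpoint and 3.22, 4.74 and 2.88 CPM at 2 weeks (log2 fold change 2.87 ± 0.48, edgeR adjusted p = 0.0542). Car4 had 39.2, 152 and 279 CPM at the endpoint and 11.9, 20.6 and 22.2 CPM at 2 weeks (3.10 ± 0.62, edgeR adjusted p = 0.0586). Endpoint library 1 was the lowest endpoint gland in both genes. The other genes higher at the endpoint were Cyp2d22, Fbxl6, Mpp2, Pgap3, Pbld1, Mettl17, Vwa3a and Xrcc1, from 0.66 to 3.18 on the log2 scale.

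On the lower side, D0H4S114, now named Nrep, had 31.6, 19.7 and 16.2 CPM at the endpoint and 92.3, 70.8 and 92.1 CPM at 2 weeks (log2 fold change -1.92 ± 0.27, edgeR adjusted p = 0.0542). Has3, a hyaluronan synthase, had 0.852, 1.24 and 0.443 CPM at the endpoint and 4.11, 5.97 and 5.80 CPM at 2 weeks (-2.64 ± 0.44, edgeR adjusted p = 0.0542). In both genes the groups lay well apart. Exoc4, a subunit of the exocyst that tethers secretory vesicles, had 25.6, 19.5 and 24.4 CPM at the endpoint and 167, 91.8 and 63.2 CPM at 2 weeks (-2.21 ± 0.36, edgeR adjusted p = 0.0542). The remaining genes, Zhx1, Fam126a, Ncoa4, Cast, Arap2, Klhdc5 and Abcc1, had log2 fold changes of -1.54 to -0.65 beside Nid2 and Gdf15 above. Under a replicate block edgeR called 7 genes, D0H4S114, Gdf15 and Nid2 lower and Rgs3, Rgl3, Rasa4 and Sdc4 higher.

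**Figure D5:**
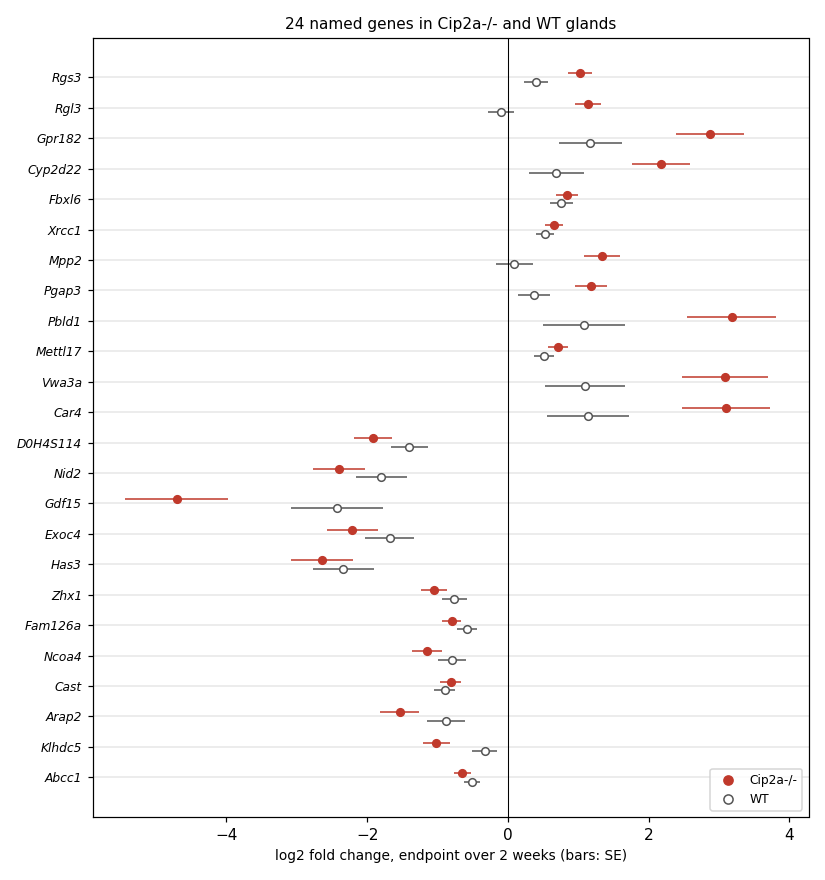
Log2 fold change, endpoint over 2 weeks, with SE bars for the 24 genes named by rule, in Cip2a-/- glands (filled red) and WT glands (open). Of the 12 genes higher in Cip2a-/- glands, Rgl3 lies at -0.10 in WT, and the 12 lower genes lie below 0 in both genotypes.

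The same contrast in WT glands, which shares no library with the Cip2a-/- one, was set beside it. Column header numbers divided the times in WT too, with 5147 to 5182 at 2 weeks and 4004 to 4087 at the endpoint. Whatever they mark runs the same way in both genotypes, so its part in a shared sign cannot be told apart from that of time. In WT, edgeR called 48 genes at an adjusted p under 0.05 (0.31%), 8 higher (0.0517%) and 40 lower (0.258%), and 1 to 1320 with any 1 WT library left out, the most without endpoint library 2. Of the 48, 47 had the same sign in Cip2a-/- glands and 43 of them had an unadjusted p under 0.05 there. The exception was Slfn5. Of the 3657 genes at an unadjusted p under 0.05 in Cip2a-/- glands, 2889 (79%) had the same sign in WT, as did 9563 of all 15482 genes (61.8%). Across all genes, which are not independent replicates, Pearson's r of the log2 fold changes was -0.06 and Spearman's rho 0.23. For the difference between the genotypes edgeR called 0 genes, and the smallest adjusted p was 0.476. At an unadjusted p under 0.05 there were 1599 such genes (10.3%). With DESeq2 the count called was 120.

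By list, collagens had a median log2 fold change of -1.40 in Cip2a-/- and -1.79 in WT, and ribosomal protein genes had 0.71 in Cip2a-/- and 0.83 in WT. In WT 74 of the 83 were higher at an unadjusted p under 0.05, against 12.8% of all genes. The p53 targets had -1.24 in Cip2a-/- and -0.58 in WT, with 16 members lower at an unadjusted p under 0.05 in Cip2a-/- and 7 in WT, where the share of all genes was 9.69%. The difference itself had an unadjusted p under 0.05 for 4 of 25, against 10.3% of all genes. Gdf15 in WT had 1.14, 1.70 and 4.17 CPM at the endpoint and 4.33, 8.32 and 25 CPM at 2 weeks. The WT groups were apart by little, and the log2 fold change was -4.71 ± 0.73 in Cip2a-/- and -2.43 ± 0.66 in WT (difference -2.29 ± 0.91, edgeR adjusted p = 0.476). Endothelial markers had medians of 1.08 in Cip2a-/- and 0.07 in WT. For the difference 4 of 17 had an unadjusted p under 0.05, against 10.3% of all genes. Kdr, a VEGF receptor and one of these, stood at 1.13 ± 0.35 in Cip2a-/- and -0.19 ± 0.35 in WT (edgeR adjusted p of the difference = 0.476). B cell genes differed between the genotypes in 14 of 15 at an unadjusted p under 0.05, against 10.3% of all genes. In Cip2a-/- 0 passed, and in WT 14 were higher and 1 lower, against 12.8% and 9.69% of all genes. The WT endpoint glands were uneven, with 161, 0.271 and 0.253 CPM of Ms4a1 and 440, 0.929 and 131 CPM of Cd79a. In Cip2a-/- glands the B cell score was highest in 2-week library 2, as given above. The values thus move with single libraries.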

How the data were processed

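PolyA RNA of mouse mammary glands was sequenced from stranded mRNA libraries, per the labels' protocols. The authors deposited 1 table of raw read counts per gene, and bcl2fastq 2.17, STAR 2.5.2b, Subread 1.5.1 and the mm10 build are named in the submitters' processing notes. No source used here states the annotation or the strand setting of counting. Library totals were 16121743 to 24586404 over 18 libraries.

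Counts were fitted with edgeR 4.0.16 (quasi-likelihood F-test, two-sided) in R 4.3.3 with TMM scaling, filterByExpr (minimum count 10) and 1 term for each of 6 groups. The contrasts were endpoint minus 2 weeks in Cip2a-/- glands, the same in WT glands, and their difference, with Benjamini-Hochberg adjustment and genes called at an adjusted p under 0.05. CPM were computed after TMM scaling. The fit was checked on simulated counts. Alternatives were DESeq2 1.42.0, limma 3.58.1 voom with sample quality weights, other scaling, no filter, only the libraries compared, a replicate block, each library left out, and, added after seeing the data, a transcript length offset and an adjusted p under 0.10. Library sizes without muscle, milk and brown fat genes were also tried.

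The 50 gene lists were described by counts and medians, with no test, and the comparison and lists were chosen with earlier results of these data known. Named genes were Cip2a, the 12 of smallest p in each direction with a mean of at least 5 CPM in 1 group and no overlap between groups (the rule's fallback, since none was called), and the first 2 genes of lists described, of which 1 is not reported here. Other list members named in the text, and Mgmt and Ephx1, were chosen after their values were seen. Coordinates and promoters are RefSeq's for GRCm38.p6, matched for all but 206 of 23337 symbols.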

Additional observations from a re-analysis of the deposited data

How the results depend on the processing

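For endpoint against 2 weeks in Cip2a-/- glands the edgeR count of genes called was 0. It stayed 0 with RLE scaling, no low-count filter, only the 6 compared libraries, library sizes without muscle, milk and brown fat genes, a transcript length offset and voom with quality weights. It was 1800 with DESeq2, 7 with the replicate block and 959 at an adjusted p under 0.10, a threshold chosen after seeing the data. Leaving out 1 library gave 0 to 552, the highest without endpoint library 1. Of the 1800 DESeq2 calls, 954 had an edgeR adjusted p under 0.10. In WT glands, 48 with all libraries, the count was 1561 with DESeq2, 312 with voom, 15 with no filter, 0 with only the compared libraries, 75 with the replicate block, 0 with the length offset and 1 to 1320 with 1 library left out. The difference between the genotypes had 0 calls, 120 with DESeq2 and 0 to 1 with 1 library left out. Same-numbered libraries did not deviate together (r of -0.07, -0.09 and -0.16 in Cip2a-/- and -0.29, -0.22 and 0.00 in WT). With 3 libraries a group and single glands far from the rest, these values cannot exclude that replicate numbers pair the samples. With 1 library left out, the median log2 fold change of 29 of 50 lists changed sign in at least 1 case, among them interferon-stimulated genes (-0.57 to 0.87), inflammatory cytokines (-0.44 to 0.23), G2 and M phases (-0.72 to 0.23) and MHC class II (-0.76 to 0.25). Those of p53 targets, collagens, endothelial markers and ribosomal proteins kept their sign. In 24 of the 29 the median with all libraries was within the spread between replicates of the list's score (1 SD), and in 5 it was beyond it: hypoxia and glycolysis (-0.56 to 0.09) and skeletal muscle (-8.70 to 0.03) without 2-week library 1, ErbB (-0.09 to 0.73) and red blood cell (-0.51 to 4.06) without endpoint library 3, and T cell (-2.78 to 0.41) without 2-week library 2. For the 24 genes named by rule and Ephx1, Mgmt and Ifi202b, 320 values under the alternatives kept their direction and their side of the threshold, and 58 kept their direction and passed it. These genes were chosen for no overlap between the groups or after their values were seen. A kept direction was therefore close to fixed by the choice and does not measure stability. The cause of the changes between settings was not tested. With 3 libraries a group, the spread within groups limits which differences can pass. The part of the glands' uneven make-up in that spread was not tested.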

Other observations

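Ifi202b, a member of the Ifi200 family of interferon-induced DNA sensors and regulators, had 16.4, 5.21 and 6.80 CPM in endpoint Cip2a-/- glands and 0, 0.169 and 0 CPM in 2-week Cip2a-/- glands. The untreated Cip2a-/- glands had 5.98, 0 and 9.79 CPM, and WT glands had 2.53, 7.24 and 8.22 CPM at the endpoint and 15.9, 9.44 and 13.3 CPM at 2 weeks. An untreated Cip2a-/- gland was thus at 0, and every WT gland given here was above that. The log2 fold change, endpoint over 2 weeks, was 7.07 ± 1.47 in Cip2a-/- glands (edgeR adjusted p = 0.0586) and -1.10 ± 1.04 in WT glands, and the difference had an edgeR unadjusted p of 0.000413 and an adjusted p of 0.476. The gene was chosen after its values were seen, and the mice have a mixed background of C57BL/6J and 129.

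Interferon-stimulated genes were uneven among the endpoint glands, with scores of 1.18, -0.41 and -0.63 there and -0.04, 0.10 and -0.20 at 2 weeks. Of 20 tested genes 3 were higher and 0 lower at an unadjusted p under 0.05. The share of higher genes, 15%, was near the 11.7% of all genes. The median log2 fold change was 0.50, and -0.57 without endpoint library 1, when 1 was higher and 4 lower. Without 2-week library 3, 1 was higher. Rsad2, the antiviral radical SAM enzyme viperin, had 26.6, 27.5 and 52.6 CPM at the endpoint and 9.18, 10.8 and 8.49 CPM at 2 weeks, apart in every gland (1.90 ± 0.42, edgeR adjusted p = 0.0586). Ccl2, a chemokine for monocytes, had 4.01, 1.5 and 0.498 CPM at the endpoint and 6.99, 9.48 and 11.4 CPM at 2 weeks (-2.21 ± 0.83).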
